A study of Xenopus tropicalis with 24 samples.

Results

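The proteasome subunit genes of *Xenopus tropicalis* were described here in tadpole tails sampled after amputation. Members were taken by symbol, as every gene named psm followed by a letter from a to g and a number, and 47 of the 26531 genes in the count table met this rule. The rule itself uses no expression value, but it was set with earlier results of these data known. Tails of wild type (WT) and TRDKO tadpoles, in which both thyroid hormone receptor genes (TRα and TRβ) are knocked out, were cut at stage 56 or stage 61 and collected at 0, 6 or 24 hours post amputation (hpa). The resulting 12 conditions had 2 libraries each, 24 in all, and the groups are named WT56, WT61, TRDKO56 and TRDKO61. Stage 56 lies in premetamorphosis, and stage 61 lies in metamorphic climax, when thyroid hormone is high and the tail is resorbed in WT animals. Every library, 0 hpa included, came from cut tails, so that there was no uncut group. TRDKO tadpoles came from mating mutant frogs whereas WT tadpoles came from purchased animals, so genotype and parentage cannot be told apart. The RNA was from whole tissue, made up of the newly formed tail and a stretch of old tail next to the cut. In such bulk RNA, fewer cells of a type and less RNA per cell cannot be told apart. The labels speak of biological replicate RNA samples but do not say which animals went into which library, and the study's methods can also be read as replicate libraries made from 1 RNA sample. The p-values measure only the spread between these libraries, and on the latter reading every SE and FDR covers technical spread alone.

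The proteasome degrades proteins tagged with ubiquitin. Its 20S core is a barrel of outer alpha rings and inner beta rings, and 3 beta subunits carry the active sites. A 19S regulatory particle caps the barrel: its base holds a ring of ATPases that unfold the substrate, and its lid removes the ubiquitin. In mammals, interferon brings in other catalytic subunits and the PA28 activator, which together form the immunoproteasome and change the peptides made for MHC class I. Muscle breakdown and the removal of larval tissue are settings in which this pathway is known to act.

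By subcomplex, the table held 7 alpha ring genes (*psma1* to *psma7*), 4 non-catalytic beta genes (*psmb1* to *psmb4*), the 3 constitutive catalytic beta genes (*psmb5*, *psmb6* and *psmb7*), 3 inducible or tissue-specific catalytic genes (*psmb8*, *psmb9* and *psmb11*) and 1 gene named as a copy of *psmb7* (*psmb7.2*). The 19S particle had 6 ATPases (*psmc1* to *psmc6*), 3 further base subunits (*psmd1*, *psmd2* and *psmd4*) and 8 lid subunits. The rest were 3 assembly chaperones of the 19S base (*psmd5*, *psmd9* and *psmd10*), 4 of the 20S core (*psmg1* to *psmg4*), 4 activators (*psme1* to *psme4*) and 1 inhibitor (*psmf1*). The inducible partner of *psmb7* in mammals, *psmb10*, was not among the symbols. On the numbered chromosomes of the RefSeq assembly UCB_Xtro_10.0, 46 members were spread over 10 chromosomes, with at most 12, on chromosome 8. *psmb8* lay on the unplaced scaffold Sca23. *psmb9* (chromosome 8, 73274553 to 73293580) and *psmb7.2* (chromosome 8, 73670441 to 73679494) were 376860 bases apart, whereas *psmb7* itself lay elsewhere on chromosome 8 (29130326 to 29162713). How reads shared by related genes were assigned is not given in the sources used here, so the values of *psmb7.2* and *psmb7* could in part stand for each other.

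Levels are given as TMM-scaled CPM per kilobase of exon (scaled CPM per kb), that is, library-scaled counts corrected for gene length, which allows genes to be compared. A low-count filter left 16743 genes for testing and kept 46 members. The member left out was *psmb11*, a catalytic subunit of the thymus in mammals, which had 0 to 2 counts per library and a count in 4 libraries, all of them WT61. Over the 12 conditions, the highest mean level was that of the alpha subunit *psma6* at 215 and the lowest among tested members was that of the inhibitor *psmf1* at 3.56. The members differed little between replicates. The higher library of a condition exceeded the lower by a median of 1.08 times over the tested members, against 1.16 times over all tested genes. These 2 sets were not matched for counts. The condition with the lowest mean was WT56 at 0 hpa for 27 members, and the one with the highest was TRDKO56 at 24 hpa for 21 members and WT56 at 24 hpa for 9.

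**Figure D1:**
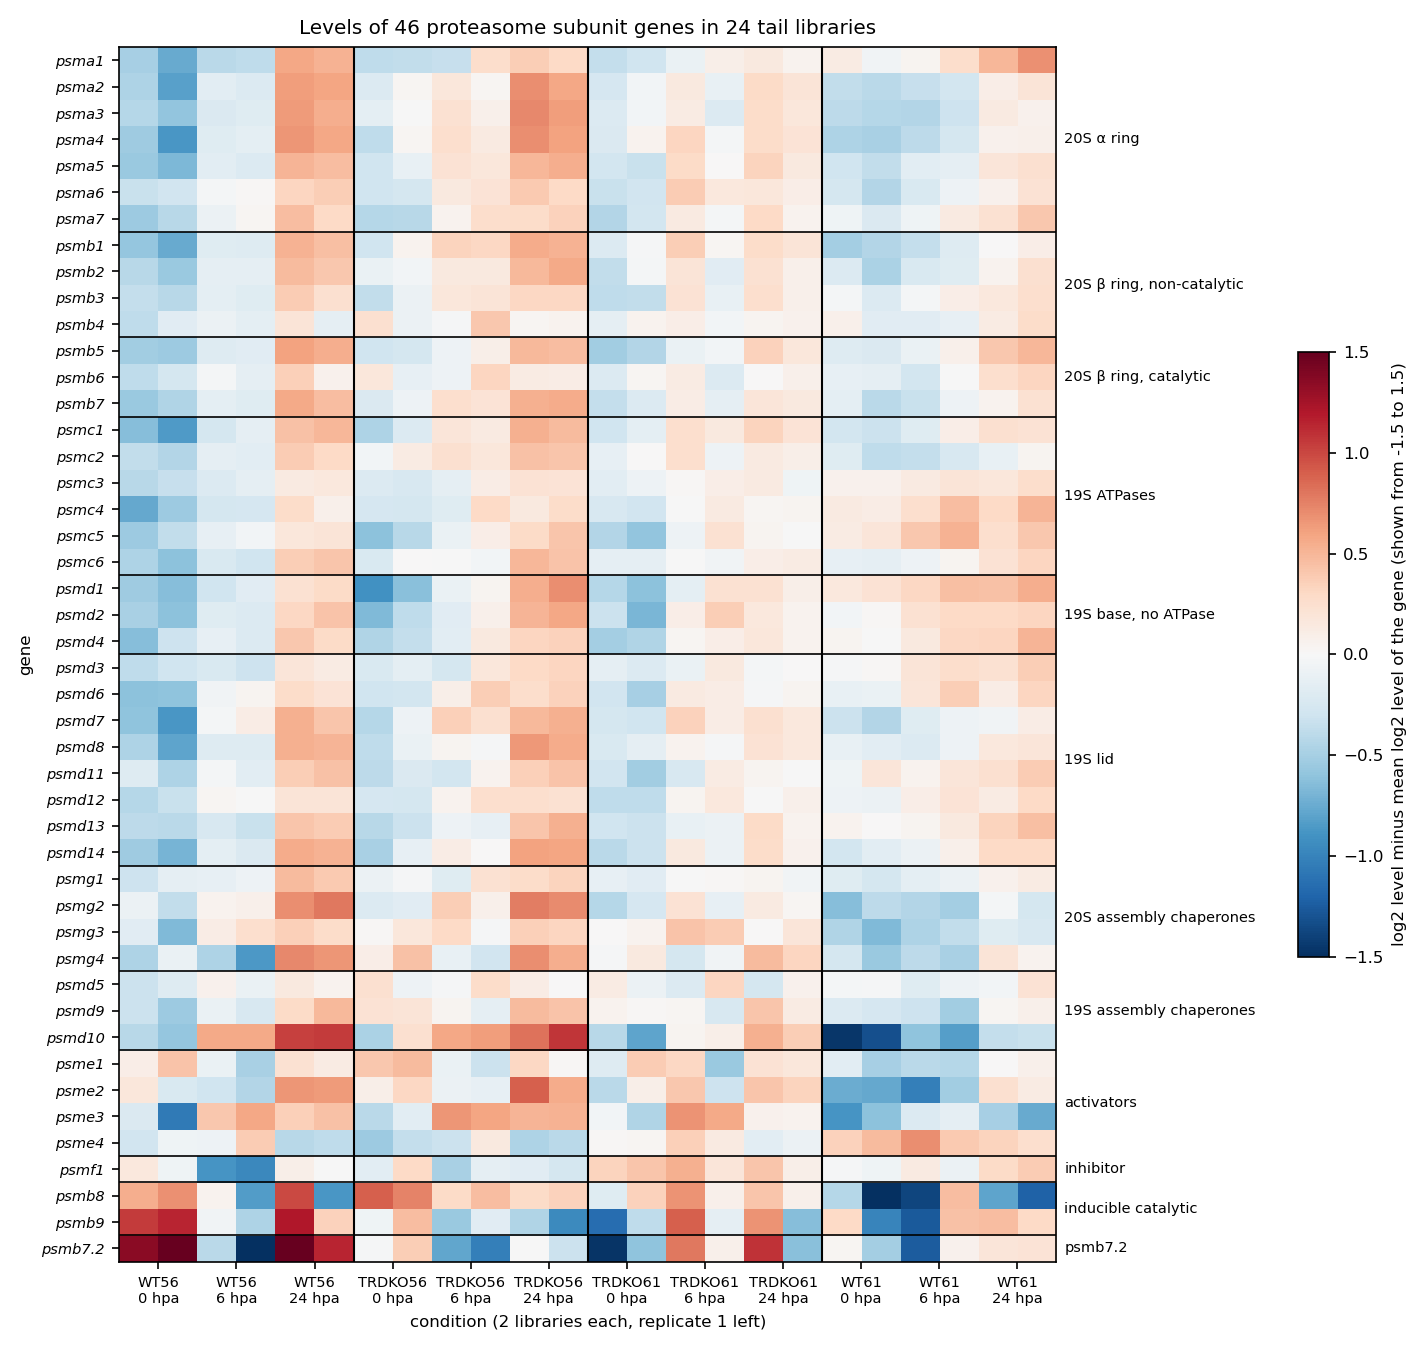
Heat map of the tested members (rows, grouped by subcomplex) over the 24 libraries (columns, grouped by condition). The colour is the log2 level of a gene relative to its own mean over the libraries, cut at the ends of the colour bar. Most 20S and 19S rows run from low at 0 hpa to high at 24 hpa, while the rows of *psmb8*, *psmb9* and *psmb7.2* differ between replicates.

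Library totals ran from 3956148 to 20731438 counts, the smallest being WT56 at 0 hpa, replicate 2, and replicates differed by more than counting noise in every condition. The receptor transcripts were counted in the TRDKO too. Their levels are in CPM, that is, counts scaled to the TMM-adjusted library size and not corrected for gene length. *thra* was at 4.07 to 6.43 CPM in WT56, 10.3 to 13.9 in WT61, 5.91 to 7.38 in TRDKO56 and 7.05 to 10.5 in TRDKO61. For *thrb* these ranges were 4.76 to 12.4, 120 to 217, 13.8 to 28.9 and 60.7 to 112 CPM. A count over the whole gene does not check a small deletion. A gene is called higher or lower where its adjusted p (FDR) in edgeR's quasi-likelihood test, with the Benjamini-Hochberg method over all genes tested, was under 0.05. Beside each count of members called stands the share of all tested genes called in that direction. A gene named for the largest change of its particle was picked from those called without overlap between libraries. Its lack of overlap was thus fixed by the choice.

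The first question was whether the tail at the stage of resorption differed from the younger tail at 0 hpa. In WT, 15 of the 46 members were higher at stage 61 and 3 were lower, with 10.7% of all tested genes called higher and 11.6% lower. The regulatory particle made up most of the members called higher. Of its 17 subunits, 12 were higher and none lower, with a median log2 fold change (FC) of 0.43 and a range from 0.12 to 0.78. Of the 14 constitutive 20S subunits, 2 were higher, *psma1* and *psmb5*, with a median of 0.23. The median over all members was 0.24, and over all tested genes it was 0.00 after rounding.

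*psmc4*, an ATPase of the base, was at 39.68 and 46.25 scaled CPM per kb in the WT56 libraries and at 74.37 and 72.92 in the WT61 libraries. All WT61 values lay above all WT56 values, and the log2 FC was 0.78 (SE 0.148, FDR 0.00112). The base scaffold *psmd1*, to which the ubiquitin receptor Adrm1 binds in mammals, went from 44.69 and 41.31 to 71.87 and 74.94 (log2 FC 0.77, SE 0.145, FDR 0.00112). In the core, *psma1* of the alpha ring went from 46.02 and 38.47 to 70.79 and 62.66 (log2 FC 0.65, FDR 0.00812). These genes showed no overlap between the stages, which for *psmc4* and *psma1* was a condition of their choice. By subcomplex, 5 of 6 ATPases, 3 of 3 other base subunits and 4 of 8 lid subunits were called, with medians of 0.44, 0.54 and 0.39. The alpha ring had 1 of 7 called and a median of 0.23. Among the other members, *psme4*, the PA200 activator, was higher (log2 FC 0.59). The members called lower were *psmb7.2* (log2 FC -1.71), the base chaperone *psmd10* (-0.91) and the activator subunit *psme2* (-0.77).

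The calls rest on few libraries. Leaving out any 1 of the 4 libraries brought the count of members called from 18 to 8 or 9, namely 8 without WT56 replicate 1, 9 without WT56 replicate 2, 8 without WT61 replicate 1 and 9 without WT61 replicate 2. The 12 calls among 19S subunits were then 7, 6, 6 and 7. *psmc4*, *psmd1* and *psmc5* kept their calls under each of the 11 alternatives run for a gene, which include leaving out each library, and *psma1* lost its call in 2, *psmb5* in 9, *psmb7.2* in 4, *psme2* in 3, *psme4* in 2 and *psmd10* in 1. The WT56 libraries of this comparison also served as the start of the WT56 time course. Cell type markers also moved between these groups. Of 24 tested leukocyte markers 8 were higher at stage 61 and none lower, and their summed level went from 494 and 509 CPM to a range of 896 to 1003. Of 18 tested muscle markers 6 were lower and none higher, with summed levels of 32550 to 46840 CPM in WT56 and 21890 to 24210 in WT61. Of 12 tested proliferation genes 9 were lower, with summed levels of 499 to 529 and of 187 to 204 CPM. No listed marker was at 0 in every library, and the part of these markers in the result was not tested.

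In TRDKO the same comparison called none of the 46 members in either direction, with 7.93% of all tested genes called higher and 8.8% lower. The smallest FDR of a member was 0.0617, and 3 members had an unadjusted p under 0.05, beside 30.25% of all tested genes. DESeq2 called none either. The median log2 FC was -0.01 over the 19S subunits, -0.08 over the 20S subunits and -0.07 over all members. *psmc4* was at 56.88 and 56.33 in TRDKO56 and at 56.97 and 55.39 in TRDKO61. *psmd1* was at 34.37 and 41.6 in TRDKO56 and at 47.93 and 42.16 in TRDKO61. The stages overlapped for *psmc4*, and for *psmd1* the higher TRDKO56 library lay just under the lower TRDKO61 library. Their log2 FCs were -0.01 and 0.25, with no call. Without TRDKO56 replicate 1, 1 member was called. Here, too, muscle markers were lower at stage 61 (9 of 18 called) and proliferation genes were lower (10 of 12 called), while no leukocyte marker was called.

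The difference between the genotypes in this stage change was tested as an interaction. It was called for 1 member, *psmc4*, with a difference of 0.80 on the log2 scale (WT minus TRDKO, SE 0.206, FDR 0.0486). Of all tested genes, 1.53% were called with a larger value in WT and 0.997% with a smaller one. The difference was positive for 17 of 17 subunits of the 19S particle, with a median of 0.44, and for 35 of 46 members, with a median of 0.32. Of all tested genes, 49.13% had a positive difference. At an unadjusted p under 0.05 there were 16 members, beside 17.52% of all tested genes. The genotypes differed at both stages: the median log2 FC of TRDKO against WT at 0 hpa over members was 0.27 at stage 56 and 0.02 at stage 61. Over the 19S subunits it was 0.16 and -0.28, and over the 20S subunits 0.36 and 0.04. The *psmc4* call was lost when any 1 of the 8 libraries was left out, so the count then went from 1 to 0. RLE size factors and the fit without a low-count filter also gave 0 calls, whereas DESeq2 gave 4.

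**Figure D2:**
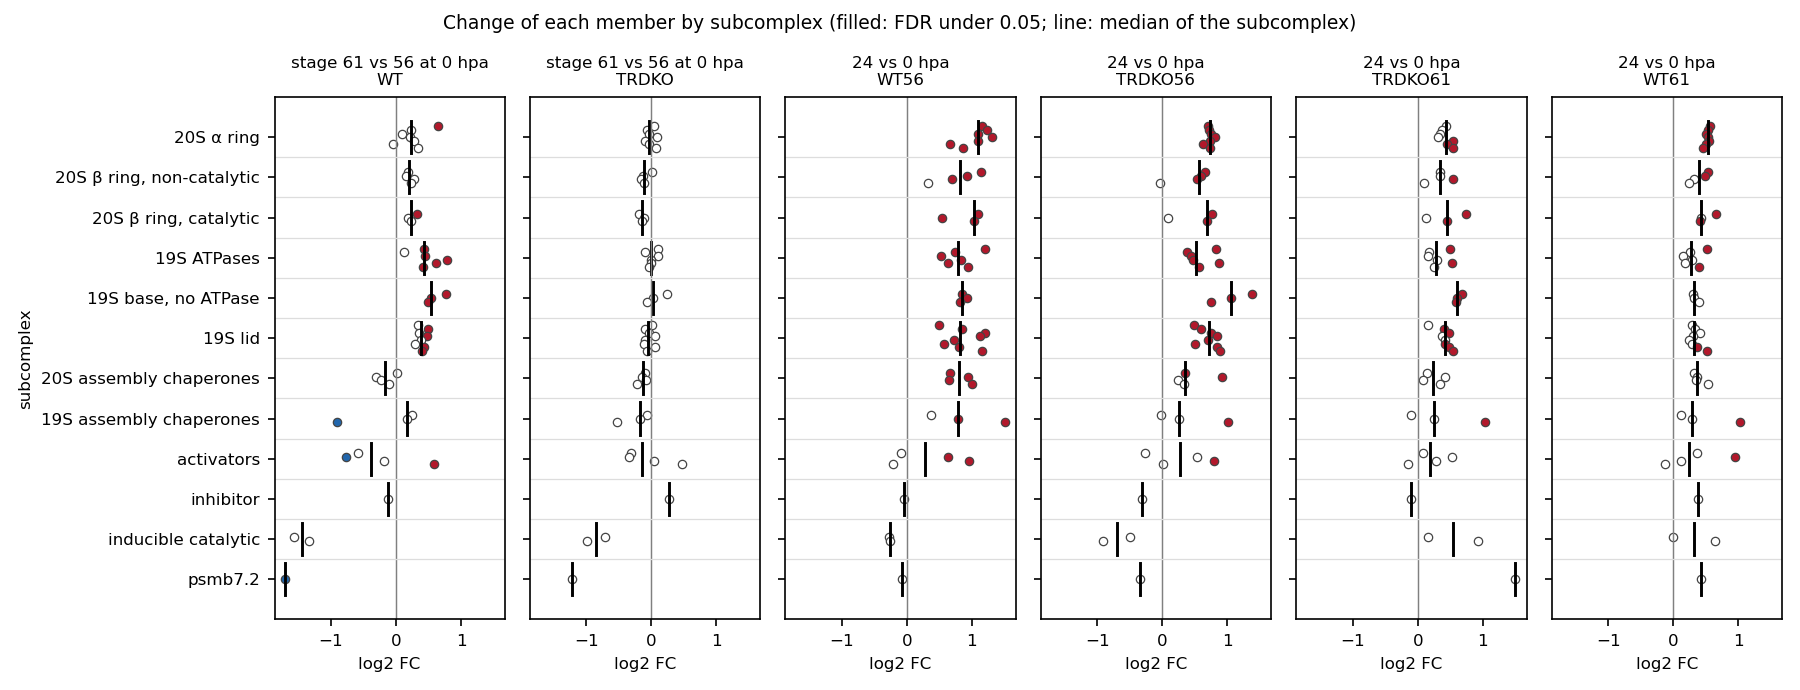
Log2 fold change of each tested member (points) by subcomplex (rows), with a panel for each comparison and the median of each subcomplex marked. In the WT stage comparison at 0 hpa the 19S rows lie to the right of 0, and in TRDKO they scatter around 0. In the comparisons of 24 with 0 hpa the 20S and 19S rows both lie to the right of 0.

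The balance of the particles was then described within each library, as the summed level of the 17 regulatory subunits over that of the 14 core subunits. This measure was chosen after the values were seen and carries no test. The ratio ran from 0.679 to 0.737 in the 6 WT56 libraries (median 0.718), from 0.660 to 0.746 in TRDKO56 (median 0.699) and from 0.675 to 0.813 in TRDKO61 (median 0.709). In WT61 it ran from 0.762 to 0.878 (median 0.840). The WT61 range lay above those of WT56 and TRDKO56 and overlapped that of TRDKO61 through a single TRDKO61 library, replicate 2 at 6 hpa. Within WT61 the ratio was 0.806 and 0.875 at 0 hpa, 0.876 and 0.877 at 6 hpa, and 0.763 and 0.762 at 24 hpa, so both libraries at 24 hpa were below the other 4.

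**Figure D3:**
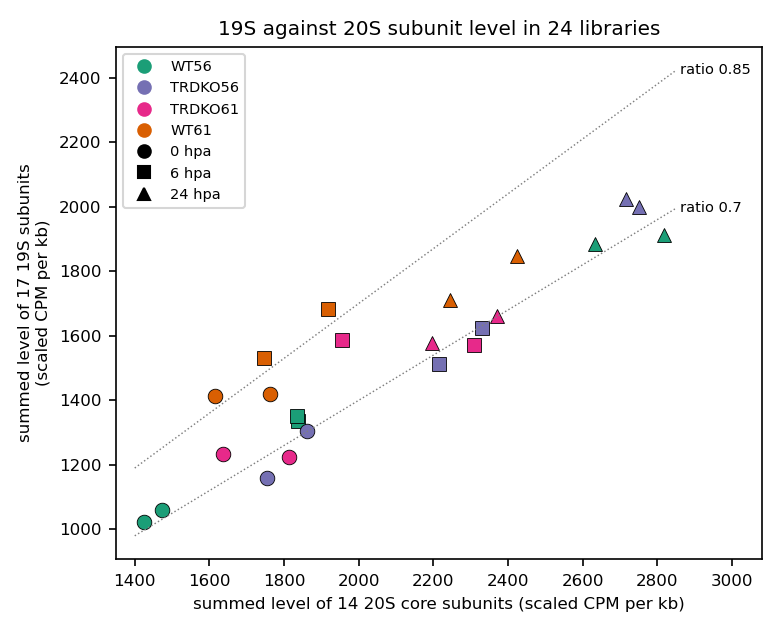
Summed scaled CPM per kb of 17 regulatory particle genes against that of 14 core particle genes in each library (points), marked by group and time. Dotted lines mark constant ratios of the regulatory to the core sum. The ratio runs from 0.762 to 0.878 in WT61 libraries and stays between 0.660 and 0.746 in those of WT56 and TRDKO56.

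Set against WT61 at 0 hpa, TRDKO61 had 3 members higher and 6 lower, with 12.5% of all tested genes called higher and 11.9% lower. As shares of the members these were 6.52% and 13.04%, so the first lay below that of all genes and the second near it. At an unadjusted p under 0.05 there were 20 members, beside 37.19% of all tested genes, and the median log2 FC over members was 0.02. All 6 members called lower were 19S subunits. They were *psmd1* (log2 FC -0.70, SE 0.144, FDR 0.00205), the ATPase *psmc5* (-0.67), the ubiquitin receptor *psmd4* (-0.50), the base scaffold *psmd2* (-0.48), and the lid subunits *psmd11* (-0.47) and *psmd13* (-0.34). *psmc5* was at 87.67 and 91.93 in WT61 and at 59.66 and 53.45 in TRDKO61, with no overlap. None of the 14 core subunits was called, and their median was 0.04 against -0.28 for the 19S subunits. Higher in TRDKO61 were *psmd10* (log2 FC 0.80), *psme2* (0.62) and *psmg3*, a chaperone of the alpha ring (0.58). This comparison uses the same WT61 libraries as the WT stage comparison, and *psmd1* and *psmc5* kept their calls in all 11 alternatives. Leaving out 1 library gave 4 calls without WT61 replicate 1, 4 without WT61 replicate 2, 4 without TRDKO61 replicate 1 and 5 without TRDKO61 replicate 2, in place of 9, and 3 of the 6 calls among 19S subunits were kept each time. Markers moved here too. Of 18 tested muscle markers 8 were lower in TRDKO61 and none higher, with summed levels of 21890 to 24210 CPM in WT61 and 13540 to 14410 in TRDKO61. Of 24 tested leukocyte markers 5 were lower and 1 higher, with summed levels of 896 to 1003 and of 659 to 689 CPM. No proliferation gene was called, and the part of these markers in the result was not tested. At 6 hpa TRDKO61 had 9 members higher and 1 lower than WT61, beside 2010 and 1763 of the 16743 tested genes. At 24 hpa it had 2 higher and 1 lower, beside 1085 and 980 of all tested genes. Of the 19S subunits, 1 was higher and 1 lower at 6 hpa and none was called at 24 hpa, with medians of -0.10 and -0.20. Of the core subunits, 3 were higher at 6 hpa and 1 was lower at 24 hpa. At stage 56 and 0 hpa, 4 members were higher in TRDKO and none was lower, with 1.36% and 1.93% of all tested genes called. These were the base chaperone *psmd9* (log2 FC 0.61), the beta subunit *psmb1* (0.55), the alpha subunit *psma2* (0.54) and the ATPase *psmc6* (0.43). A positive value was found for 41 of 46 members and for 51.91% of all tested genes. Without WT56 replicate 1 there was 1 call, without WT56 replicate 2 none, without TRDKO56 replicate 1 there were 2, and without TRDKO56 replicate 2 none, whereas DESeq2 called 9.

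The second question was how the subunits changed after amputation. By 24 hpa, no member was called lower than at 0 hpa in any group. In WT56, 38 of the 46 members were higher, with 20.2% of all tested genes called higher and 17.7% lower. In TRDKO56, 33 members were higher, with 19.5% and 16.5% of all genes called. In TRDKO61, 17 members were higher, with 6.25% and 4.12% of all genes called. In WT61, 17 members were higher, with 5.11% and 5.14% of all genes called. The median log2 FC over the members was 0.83, 0.61, 0.39 and 0.37 in these groups in turn. Each group was compared with its own 0 hpa libraries.

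The summed level of the 14 core subunits went from 1449 ± 32.8 (SD, n = 2) at 0 hpa through 1835 ± 1.80 at 6 hpa to 2725 ± 129 at 24 hpa in WT56. In TRDKO56 it went from 1808 ± 75.8 to 2272 ± 81.8 and 2733 ± 24.2. In TRDKO61 it went from 1725 ± 125 to 2131 ± 251 and 2282 ± 123. In WT61 it stood at 1688 ± 105, 1833 ± 121 and 2335 ± 129. The stage 56 groups thus ended at nearly the same level from different starts, and the stage 61 groups ended below them. For the 17 regulatory subunits, the means were 1040, 1344 and 1898 in WT56, and 1232, 1567 and 2011 in TRDKO56. They were 1229, 1579 and 1618 in TRDKO61 and 1416, 1606 and 1780 in WT61.

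By particle, WT56 at 24 hpa had 17 of 17 regulatory and 13 of 14 core subunits higher, with medians of 0.83 and 1.06. *psma4*, an alpha ring subunit, was the core gene with the largest rise. It was at 52.7 and 41.6 at 0 hpa, 67.04 and 68.93 at 6 hpa, and 120.3 and 114.4 at 24 hpa, with no overlap between the times (24 against 0 hpa, log2 FC 1.31). *psmc1*, an ATPase, went from 79.78 and 68.93 to 168.1 and 174.6 (log2 FC 1.20). In TRDKO56 the counts were 17 of 17 and 12 of 14, with medians of 0.74 and 0.70, and *psmd1* had the largest rise of the regulatory subunits, from 34.37 and 41.6 to 94.3 and 104.4 (log2 FC 1.39). In both stage 56 groups the 19S calls withstood leaving out a library: 17 of 17 remained in WT56 each time, and 14 to 16 of 17 in TRDKO56.

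At stage 61 the particles were called in unlike numbers. WT61 had 11 of 14 core subunits higher (median 0.50) and 4 of 17 regulatory subunits (median 0.30), whereas TRDKO61 had 6 of 14 (median 0.41) and 10 of 17 (median 0.42). The difference between particles was not tested. *psmb5*, the core gene with the largest rise in both groups, was at 99.26 and 97.55 at 0 hpa and at 150.6 and 160.3 at 24 hpa in WT61 (log2 FC 0.66). In TRDKO61 it was at 78.95 and 83.38, then at 144.4 and 127.4 (log2 FC 0.74). These counts moved when a library was left out, which leaves 1 in its condition and weakens the test whatever its values. The part of the weaker test in this was not tested. The median over members was then 0.33 to 0.43 in WT61 and 0.33 to 0.44 in TRDKO61. In WT61, 17 calls became 4 without 0 hpa replicate 1, 2 without 0 hpa replicate 2, 4 without 24 hpa replicate 1 and 3 without 24 hpa replicate 2. In TRDKO61, 17 became 7 without 0 hpa replicate 1, 4 without 0 hpa replicate 2 and 2 without 24 hpa replicate 1. The same 9 members were called in all 4 groups: *psma5*, *psma6* and *psma7* of the alpha ring, the catalytic *psmb5* and *psmb7*, the ATPase *psmc1*, the lid subunit *psmd13*, the deubiquitinase *psmd14* and the chaperone *psmd10*. A further 15 members were called in 3 groups, 10 in 2 and 4 in 1. The 8 members called in none were the inducible *psmb8* and *psmb9*, *psmb7.2*, the activators *psme1* and *psme4*, the inhibitor *psmf1*, the base chaperone *psmd5* and *psmb4*, the only core subunit without a call, whose log2 FCs ran from -0.04 in TRDKO56 to 0.32 in WT56. A positive value in all 4 groups was found for 38 of 46 members. The shares of all tested genes that match these joint counts over groups were not computed.

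Cell type markers moved over the same time. Of 24 tested leukocyte markers, 17, 15, 12 and 6 were higher at 24 than at 0 hpa in WT56, TRDKO56, TRDKO61 and WT61, and none was lower. Their summed levels at 0 and 24 hpa were 494 to 509 and 1321 to 1768 CPM in WT56, and 896 to 1003 and 1367 to 1407 in WT61. TRDKO56 had 592 to 614 and 1098 to 1323, and TRDKO61 had 659 to 689 and 1149 to 1531. All 18 tested muscle markers were lower in both stage 56 groups, none was called in TRDKO61 and 7 were lower in WT61. The summed muscle level went from 32550 to 46840 CPM down to 10880 to 12050 in WT56, and from 23240 to 28630 down to 8495 to 9550 in TRDKO56. Proliferation genes were higher in each group (7, 7, 8 and 6 of 12). The part of these markers in the rise of the subunits was not tested.

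The rise was then divided at 6 hpa. From 0 to 6 hpa, 15 members were higher and 2 lower in WT56, with 11.9% and 10% of all tested genes called. In TRDKO56, 16 were higher and none lower, with 13.3% and 10.9% of all genes called. In TRDKO61, 17 were higher and none lower, with 13.1% and 11.3% of all genes called. In WT61, 1 was higher and none lower, with 5.62% and 3.91% of all genes called. The medians over members were 0.31, 0.28, 0.32 and 0.13. The share of members called higher thus exceeded that of all genes in the first 3 groups and lay below it in WT61. There, 5 members had an unadjusted p under 0.05, beside 25.86% of all tested genes. Both particles were among the members called, with 6 of 14 and 7 of 17 called in WT56, 6 and 8 in TRDKO56, and 5 and 9 in TRDKO61.

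Among regulatory subunits, the lid subunit *psmd7* had the largest rise in WT56, from 73.3 and 61.02 to 109.2 and 120.6 (log2 FC 0.77). *psmd1* had the largest rise in TRDKO56, from 34.37 and 41.6 to 60.27 and 66.03 (log2 FC 0.73). *psmd2* had the largest rise in TRDKO61, from 51.04 and 39.68 to 68.44 and 82.02 (log2 FC 0.73). None of these overlapped between times, which was a condition of their choice. At 6 hpa, too, the counts moved when a library was left out, which leaves 1 in its condition. In WT56 the 17 calls became 11 without 0 hpa replicate 1, 6 without 0 hpa replicate 2, 9 without 6 hpa replicate 1 and 4 without 6 hpa replicate 2. In TRDKO56 the 16 calls became 3 without 0 hpa replicate 1 and 4 without 6 hpa replicate 2. In TRDKO61 the 17 calls became 11 without 0 hpa replicate 1, 6 without 0 hpa replicate 2 and 11 without 6 hpa replicate 2. The single WT61 call was lost without 0 hpa replicate 1, 0 hpa replicate 2 or 6 hpa replicate 2.

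Leukocyte markers were higher by 6 hpa as well. Of the 24 tested, 13 were called higher in WT56, 10 in WT61, 16 in TRDKO56 and 18 in TRDKO61, and none was lower. Their summed levels at 0 and 6 hpa were 494 to 509 and 950 to 1264 CPM in WT56, and 896 to 1003 and 1239 to 1957 in WT61. TRDKO56 had 592 to 614 and 1501 to 1540, and TRDKO61 had 659 to 689 and 1922 to 2500. Of 12 tested proliferation genes, 6 were lower in WT56, 1 in WT61, 9 in TRDKO56 and 2 in TRDKO61, where 1 was higher. Of 18 muscle markers, 1 was higher in each stage 56 group and none was called at stage 61. The part of these markers in the early change of the subunits was not tested.

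Whether the early change differed between stages in WT was tested directly. None of the 46 members was called in the difference between WT61 and WT56 in the change from 0 to 6 hpa, with 0.108% of all tested genes called with a larger and 0.0717% with a smaller value in WT61. The median difference was -0.19, and DESeq2 called none. Of the members, 8 were positive and 4 had an unadjusted p under 0.05. Of all tested genes, 48.27% were positive and 11.56% had such a p. A smaller early change in WT61 than in WT56 was thus not called for any single member.

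From 6 to 24 hpa, 33 members were higher and 1 lower in WT56, with 15% and 13.8% of all tested genes called. In TRDKO56, 19 were higher and none lower, with 17.5% and 15.5% of all genes called. In TRDKO61, 1 was higher and none lower, with 6.73% and 5.13% of all genes called. In WT61, 3 were higher and none lower, with 2.22% and 1.07% of all genes called. The medians were 0.54, 0.34, 0.05 and 0.30. In WT56 the core had 12 of 14 and the regulatory particle 14 of 17 subunits called, with medians of 0.67 and 0.49. *psma1* went there from 49.32 and 49.95 to 97.03 and 93.47 (log2 FC 0.94), and *psmd14*, the deubiquitinase of the lid, from 73.81 and 70.7 to 120.7 and 117.6 (log2 FC 0.72). The WT61 members called were *psma3*, *psmb5* and *psme2*. *psma3* went from 95.72 and 104.3 to 142.0 and 135.6 (log2 FC 0.47), with no overlap, but this call was lost in 8 of 11 alternatives.

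The 34 calls of WT56 became 18 without 6 hpa replicate 2. The 19 of TRDKO56 became 12 without 6 hpa replicate 2 and 9 without 24 hpa replicate 1. The single call of TRDKO61 was lost without 6 hpa replicate 2, 24 hpa replicate 1 or 24 hpa replicate 2. The 3 of WT61 became 0 without 6 hpa replicate 1, 1 without 6 hpa replicate 2, 0 without 24 hpa replicate 1 and 0 without 24 hpa replicate 2. Summed markers moved too, as means in CPM for WT56, TRDKO56, TRDKO61 and WT61 in turn. Muscle went from 43870 to 11460, 30880 to 9022, 10900 to 9666 and 18760 to 11580. Proliferation genes went from 250 to 1081, 248 to 1024, 143 to 377 and 128 to 352. Leukocyte markers went from 1107 to 1545, 1521 to 1210, 2211 to 1340 and 1598 to 1387. Libraries overlapped between times for muscle in TRDKO61 and leukocyte markers in WT61. The part of these markers was not tested.

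The late change of TRDKO61 was then set against that of TRDKO56. The difference was called for 1 member, *psmd2*, at -0.71 on the log2 scale (SE 0.202, FDR 0.0424), with 3.86% of all tested genes called with a larger and 2.85% with a smaller value in TRDKO61. *psmd2* went from 56.76 and 67.41 to 90.32 and 95.36 in TRDKO56, and from 68.44 and 82.02 to 71.31 and 65.92 in TRDKO61. The TRDKO61 libraries at 6 and 24 hpa overlapped, and those of TRDKO56 did not. Of 46 members, 4 had a positive difference, beside 47.21% of all tested genes, and the median was -0.25. In WT the matching difference, WT61 minus WT56, was called for no member (smallest FDR 0.101), with 1.36% and 0.747% of all genes called. DESeq2 called none in it either. An unadjusted p under 0.05 was found for 10 members and for 19.07% of all tested genes. The median was -0.33, and 6 members were positive, beside 47.27% of all tested genes. The count in TRDKO became 2 without TRDKO56 6 hpa replicate 2 or TRDKO61 6 hpa replicate 1, and 0 without any 1 of the other 6 libraries.

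The stages were also compared after amputation. At 6 hpa in WT, 10 members were higher at stage 61 and 4 lower, with 17.1% and 18.3% of all tested genes called. Of the members called higher, 8 were regulatory subunits and 1 was a core subunit, with medians of 0.28 and -0.04. At 24 hpa in WT, 1 was higher (*psme4*) and 14 lower, with 11.1% and 13% of all genes called. The members called lower were 5 of 14 core subunits, 3 of 17 regulatory subunits, 5 of 7 assembly chaperones and *psme3*. *psma4* was at 120.3 and 114.4 in WT56 and at 79.92 and 80.26 in WT61 at 24 hpa (log2 FC -0.55), and *psmd7* was at 161.4 and 148.7 against 107.6 and 120.1 (log2 FC -0.45). Neither gene overlapped between stages, which was a condition of their choice. The 14 calls at 6 hpa became 5 without WT56 replicate 2 and 8 without WT61 replicate 2. The 15 at 24 hpa became 4 without WT56 replicate 1, 7 without WT56 replicate 2, 5 without WT61 replicate 1 and 5 without WT61 replicate 2.

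In TRDKO at 6 hpa, no member was higher at stage 61 and 1 was lower (*psmd10*), with 8.71% and 10.2% of all genes called. At 24 hpa none was higher and 7 were lower, with 6.89% and 6.96% of all genes called, and 5 of these were regulatory subunits. *psmd1* was at 94.3 and 104.4 in TRDKO56 and at 75.39 and 68.6 in TRDKO61 (log2 FC -0.46). In both genotypes the median over members at 24 hpa was below 0, at -0.22 in WT and -0.29 in TRDKO. The single call at 6 hpa was lost without TRDKO56 replicate 1, TRDKO61 replicate 1 or TRDKO61 replicate 2. The 7 calls at 24 hpa became 1 without TRDKO56 replicate 1, TRDKO56 replicate 2 or TRDKO61 replicate 1, and 0 without TRDKO61 replicate 2.

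The catalytic subunits were described gene by gene. *psmb5*, the chymotrypsin-like subunit, was at 79.05 and 77.84 in WT56 at 0 hpa, 98.74 and 100.4 at 6 hpa, and 171.8 and 165.0 at 24 hpa. In TRDKO56 it was at 92.0 and 94.21, 107.2 and 120.9, and 159.0 and 156.6. In WT61 it was at 99.26 and 97.55, 105.7 and 119.7, and 150.6 and 160.3, and in TRDKO61 at 78.95 and 83.38, 106.1 and 110.2, and 144.4 and 127.4. In each group its libraries stepped up without overlap between the times, and the calls at 24 against 0 hpa in all 4 groups held in all 11 alternatives. *psmb7*, the trypsin-like subunit, was at 75.57 and 81.61, 100.4 and 98.27, and 165.9 and 153.8 in WT56, and at 100.6 and 83.93, 88.29 and 105.9, and 115.9 and 130.6 in WT61. For TRDKO56 the *psmb7* levels were 96.05 and 105.3, 132.2 and 128.3, and 161.4 and 164.3, and for TRDKO61 they were 86.66 and 96.53, 120.2 and 101.9, and 126.0 and 123.3. Its 24 hpa libraries were the highest of each group. *psmb7* was called higher at 24 than at 0 hpa in all 4 groups, with log2 FCs of 1.03 in WT56 and 0.42 in WT61, and of 0.69 in TRDKO56 and 0.45 in TRDKO61. The WT61 call was lost in 9 of 11 alternatives and the TRDKO61 call in 6. *psmb6*, the caspase-like subunit, was at 65.41 and 70.94, 83.11 and 77.44, and 109.3 and 88.68 in WT56, and at 77.82 and 77.56, 70.2 and 84.38, and 101.6 and 106.3 in WT61. In TRDKO56 *psmb6* stood at 96.02 and 77.86, 80.55 and 106.5, and 92.54 and 92.11, and in TRDKO61 at 73.48 and 86.47, 92.21 and 73.93, and 85.39 and 89.83, so that its times overlapped in both TRDKO groups.

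The inducible genes stood far below their constitutive partners. *psmb8*, which takes the place of *psmb5* in the mammalian immunoproteasome, was at 13.38 and 14.75 in WT56 at 0 hpa, 9.492 and 5.114 at 6 hpa, and 18.19 and 5.0 at 24 hpa. In WT61 it was at 6.847 and 2.897, 3.547 and 12.66, and 5.3 and 3.964. In TRDKO56 it was at 17.08 and 15.34, 11.23 and 12.62, and 11.19 and 11.7, and in TRDKO61 at 8.123 and 11.7, 14.69 and 9.644, and 12.27 and 9.687. Replicates of a condition thus differed by up to 3.64 times, and the only time step without overlap with the others was 0 hpa in TRDKO56, where both libraries were high. *psmb9*, the counterpart of *psmb6*, was at 12.7 and 13.53, 5.925 and 4.461, and 14.15 and 7.825 in WT56, and at 7.56 and 3.097, 2.574 and 8.339, and 8.51 and 7.587 in WT61. The TRDKO56 libraries had 5.88 and 8.454, 4.2 and 5.467, and 4.503 and 3.163, and the TRDKO61 libraries 2.776 and 4.73, 11.41 and 5.615, and 9.843 and 3.947. Neither *psmb8* nor *psmb9* was called in the comparisons of stage at 0 hpa or of time within a group. Their stage log2 FCs in WT at 0 hpa were -1.56 and -1.34, with no overlap between the 2 stages for either gene and no call.

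*psmb7.2* had the widest range of the tested members, 5.53 times between the lowest and highest condition mean. In WT56 it was at 7.945 and 9.613 at 0 hpa, 2.359 and 1.098 at 6 hpa, and 9.544 and 6.881 at 24 hpa, so both 6 hpa libraries were below all others of that group. It fell by 2.32 and then rose by 2.24 on the log2 scale (SE 0.543 and 0.524, FDR 0.00589 and 0.00447). In TRDKO61 it moved the other way, from 1.123 and 2.051 at 0 hpa to 5.389 and 3.29 at 6 hpa (log2 FC 1.48, SE 0.519, FDR 0.0474), and was at 6.61 and 2.027 at 24 hpa. In WT61 it was at 3.177 and 2.198, 1.313 and 3.268, and 3.54 and 3.603, and in TRDKO56 at 3.073 and 4.024, 1.821 and 1.534, and 3.101 and 2.49. The WT56 changes lost their calls in 1 of 11 alternatives each, and the TRDKO61 rise in 8. Whether the early changes of WT56 and TRDKO61 differed was not tested. The differences in early change that were tested called no member, *psmb7.2* included. The smallest FDR of a member was 0.202 for TRDKO61 minus TRDKO56, 0.581 for WT61 minus TRDKO61 and 0.228 for WT61 minus WT56. Of the 16743 tested genes, 25, 2 and 18 were called with a larger value in these, and 17, 6 and 12 with a smaller one.

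**Figure D4:**
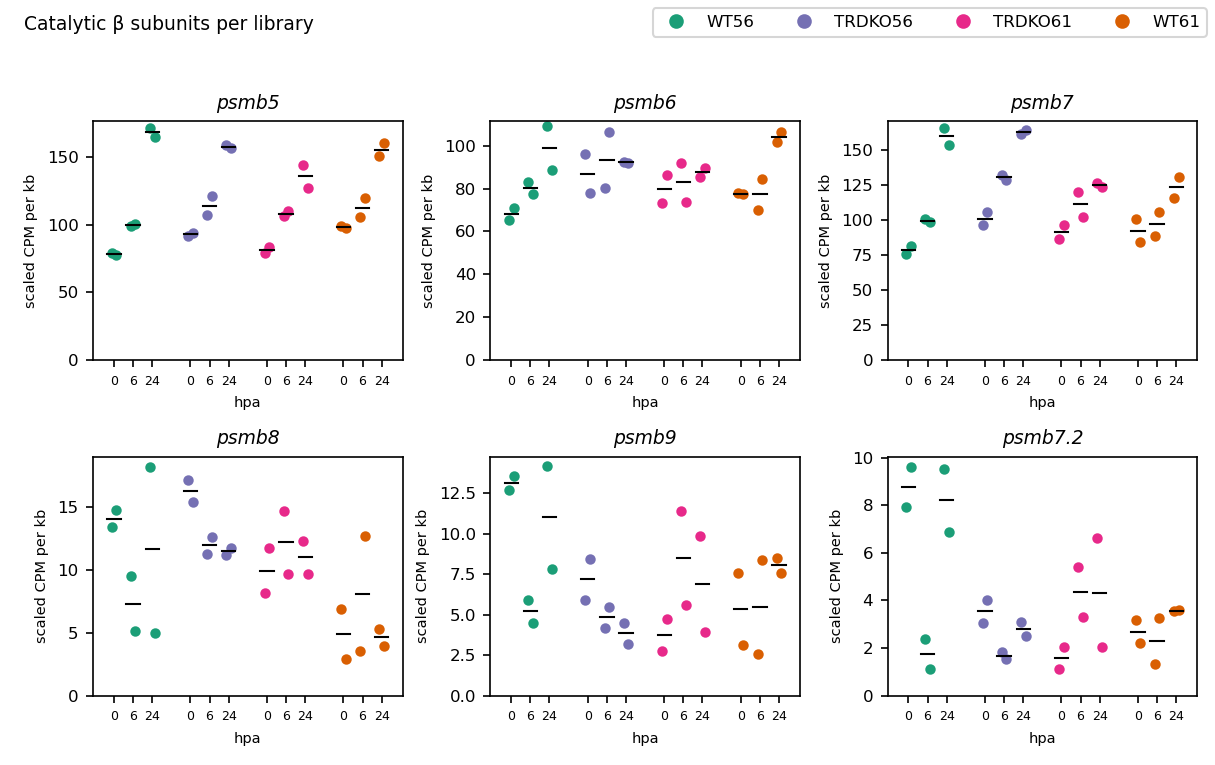
Level in each library (points, scaled CPM per kb, one panel per gene with its own axis) of the constitutive catalytic genes *psmb5*, *psmb6* and *psmb7*, the inducible genes *psmb8* and *psmb9*, and *psmb7.2*, by condition, with a bar for the mean of 2 libraries. The points of *psmb5* lie close together and step up with time, and those of *psmb8* reach a ratio of 3.64 within a condition.

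The level of *psmb8* and *psmb9* together was set against that of *psmb5*, *psmb6*, *psmb7* and *psmb7.2* together. It was 11.6% ± 0.241 (SD, n = 2) in WT56 at 0 hpa, and 4.44% ± 1.39 and 5.09% ± 2.82 at 6 and 24 hpa. In TRDKO56 it was 8.23% ± 0.323, 4.93% ± 0.189 and 3.68% ± 0.138. In WT61 it was 3.71% ± 2.01, 4.50% ± 3.11 and 3.30% ± 0.589, and in TRDKO61 5.33% ± 1.12, 6.67% ± 1.97 and 5.04% ± 1.50. The stage 56 groups at 0 hpa had the largest shares and lower ones at 6 hpa, and the stage 61 conditions lay between 3.30% and 6.67%, with SDs of the size of their differences.

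The spread between replicates was then compared between genes. Over the 12 conditions, the higher replicate to the lower was in a median ratio of 1.39 for *psmb8*, 1.57 for *psmb9* and 1.42 for *psmb7.2*, against 1.04 for *psmb5*. Counts per library were 52 to 384, 34 to 195, 21 to 302 and 258 to 3562 for these genes in turn. *psmf1*, at 12 to 124 counts, had a median replicate SD of 7.75% of its mean, and *psmb9* one of 31.1%. The part of counting noise in these ratios was not tested. The same library of the pair was the higher one for *psmb9* and *psmb8* in 10 of 12 conditions, for *psmb9* and *psmb7.2* in 10, and for *psmb9* and *psme2* in 10. It was the same for *psmb9* and *b2m*, the light chain of MHC class I, in 11 of 12, and for *psmb9* and *tap1*, a peptide transporter, in 6. For *psmb8* and *psmb7.2* it was the same in 8 of 12. With the constitutive genes the counts were much alike, as *psmb9* shared its higher library with *psmb6* in 9 of 12 and with *psmb5*, a gene of little spread, in 8. These counts are a description of 12 pairs of libraries.

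The interferon-related activator subunits *psme1* and *psme2*, which form PA28 together, were much more abundant than *psmb8* and *psmb9*. *psme2* was at 40.14 and 30.43, 28.82 and 26.32, and 56.19 and 55.17 in WT56, and at 21.17 and 20.9, 17.52 and 24.72, and 42.0 and 38.83 in WT61. In TRDKO56 it was at 37.91 and 44.06, 33.53 and 32.74, and 65.99 and 52.33, and in TRDKO61 at 26.93 and 37.93, 47.22 and 28.66, and 47.58 and 44.91. From 6 to 24 hpa *psme2* rose by 1.01 in WT56, 0.84 in TRDKO56 and 0.94 in WT61 on the log2 scale (FDR 0.00218, 0.00684 and 0.0235), and its log2 FC in TRDKO61 was 0.29 with no call. *psme1* was at 64.44 and 80.86, 56.21 and 42.89, and 70.48 and 65.18 in WT56, and at 53.69 and 42.67, 45.36 and 44.61, and 60.05 and 63.53 in WT61. In TRDKO56 *psme1* was at 79.29 and 83.28, 56.14 and 47.86, and 74.33 and 60.75, and in TRDKO61 at 52.5 and 78.17, 74.5 and 40.77, and 69.99 and 67.67. Its 6 hpa libraries were the lowest of the group in WT56 and TRDKO56, and replicates at 6 hpa in TRDKO61 differed by 1.83 times.

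*psme3*, the PA28 gamma activator of the nucleus, was higher at 6 hpa. It was at 22.65 and 12.65 at 0 hpa, 35.02 and 39.56 at 6 hpa, and 33.69 and 35.79 at 24 hpa in WT56, and at 19.95 and 23.7, 41.82 and 39.68, and 37.6 and 37.97 in TRDKO56. In TRDKO61 it was at 25.74 and 19.25, 42.24 and 39.03, and 27.55 and 27.28, and in WT61 at 14.33 and 17.27, 22.87 and 23.95, and 18.72 and 15.63. At 6 hpa all libraries of a group lay above those at 0 hpa in all 4 groups. The log2 FC was 1.06 in WT56 (SE 0.201, FDR 0.0013) and 0.57 in WT61, which was not called (FDR 0.0778). It was 0.90 in TRDKO56 (SE 0.198, FDR 0.00341) and 0.85 in TRDKO61 (SE 0.196, FDR 0.00498). At 24 hpa the libraries of WT56, TRDKO56 and TRDKO61 stayed above all those of their 0 hpa. Those of TRDKO56, TRDKO61 and WT61 were below all those of their 6 hpa, so both TRDKO groups met both conditions. In WT the stage 61 level of *psme3* at 24 hpa was lower than at stage 56 (log2 FC -1.01).

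*psme4* was higher at stage 61 in WT. It was at 11.62 and 13.62, 13.49 and 18.6, and 10.65 and 10.94 in WT56, and at 18.05 and 19.81, 22.98 and 18.65, and 17.91 and 16.93 in WT61. In TRDKO56 it was at 9.747 and 11.13, 11.39 and 15.8, and 10.32 and 10.78, and in TRDKO61 at 14.41 and 14.56, 18.2 and 15.63, and 12.75 and 13.34. It was higher in WT61 than in WT56 at 0 hpa (log2 FC 0.59, FDR 0.018) and at 24 hpa (0.69), and it fell by 0.57 on the log2 scale from 6 to 24 hpa in WT56. In TRDKO its libraries at 0 and 24 hpa were also higher at stage 61 without overlap, and neither difference was called. The inhibitor *psmf1* was at 3.86 and 3.313, 1.866 and 1.772, and 3.658 and 3.439 in WT56, so that both 6 hpa libraries were low. It fell by 1.00 and then rose by 0.96 (FDR 0.0122 and 0.00774), and these calls were lost in 3 and 2 of 11 alternatives. *psmf1* was at 3.418 and 3.31, 3.784 and 3.249, and 4.22 and 4.513 in WT61, at 3.102 and 4.243, 2.469 and 3.151, and 3.066 and 2.875 in TRDKO56, and at 4.351 and 4.607, 5.006 and 3.907, and 4.599 and 3.659 in TRDKO61. These 3 groups had no call for it in time.

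The assembly chaperones were led by *psmd10*, known in mammals as gankyrin, which helps to assemble the ATPase ring and also binds cell cycle regulators. It was at 10.67 and 9.502 at 0 hpa, 21.03 and 21.07 at 6 hpa, and 28.91 and 29.36 at 24 hpa in WT56, and at 5.169 and 5.664, 9.342 and 8.007, and 11.03 and 11.26 in WT61. TRDKO56 libraries were at 10.17 and 16.75, 21.24 and 21.85, and 24.92 and 29.92, and those of TRDKO61 at 10.59 and 8.177, 14.6 and 15.11, and 20.5 and 18.29. Its libraries stepped up with time in every group without overlap, and WT61 was the lowest group at each time. The log2 FC from 0 to 6 hpa was 1.04 in WT56 and 0.68 in WT61 (FDR 0.00145 and 0.0410), and 0.66 in TRDKO56 and 0.65 in TRDKO61 (FDR 0.0156 and 0.0172). It was the only member called in all 4 groups by 6 hpa, though the WT61 call was lost in 8 of 11 alternatives. From 0 to 24 hpa it was 1.51, 1.01, 1.04 and 1.03, and each of these calls held in all 11 alternatives. Between stages in WT it was -0.91 at 0 hpa (SE 0.21, FDR 0.00519) and -1.39 at 24 hpa. In TRDKO *psmd10* was lower at stage 61 at 6 hpa (log2 FC -0.54, SE 0.18, FDR 0.0472), a call lost without some libraries, as given above. It was not called between stages in TRDKO at 0 or 24 hpa.

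*psmg4*, a chaperone of the alpha ring, was called in no group by 6 hpa and in 3 groups from 6 to 24 hpa. It was at 13.19 and 17.09, 13.2 and 10.01, and 29.98 and 28.76 in WT56, and at 15.2 and 12.4, 13.86 and 13.02, and 20.84 and 18.89 in WT61. TRDKO56 values were 19.54 and 24.73, 16.95 and 14.99, and 29.51 and 26.68, and TRDKO61 values 18.02 and 20.13, 15.17 and 17.52, and 25.25 and 22.78. The 24 hpa libraries were the highest of each group. From 6 to 24 hpa the log2 FC was 1.34 in WT56 (FDR 5.27e-05), and in WT61 it was 0.57 with no call (FDR 0.0857). It was 0.82 in TRDKO56 (FDR 0.00202) and 0.55 in TRDKO61 (FDR 0.0422). The other chaperones of the core were lower in WT61 than in WT56 at 24 hpa as well, with log2 FCs of -0.88 for *psmg2*, -0.52 for *psmg3* and -0.35 for *psmg1*, beside -0.56 for *psmg4*. *psmg2* was at 28.68 and 30.56 in WT56 and at 17.33 and 14.8 in WT61 at 24 hpa, with no overlap. Proliferation genes moved in the same comparison, with 11 of 12 lower in WT61 at 24 hpa, and their part in the result was not tested.

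**Figure D5:**
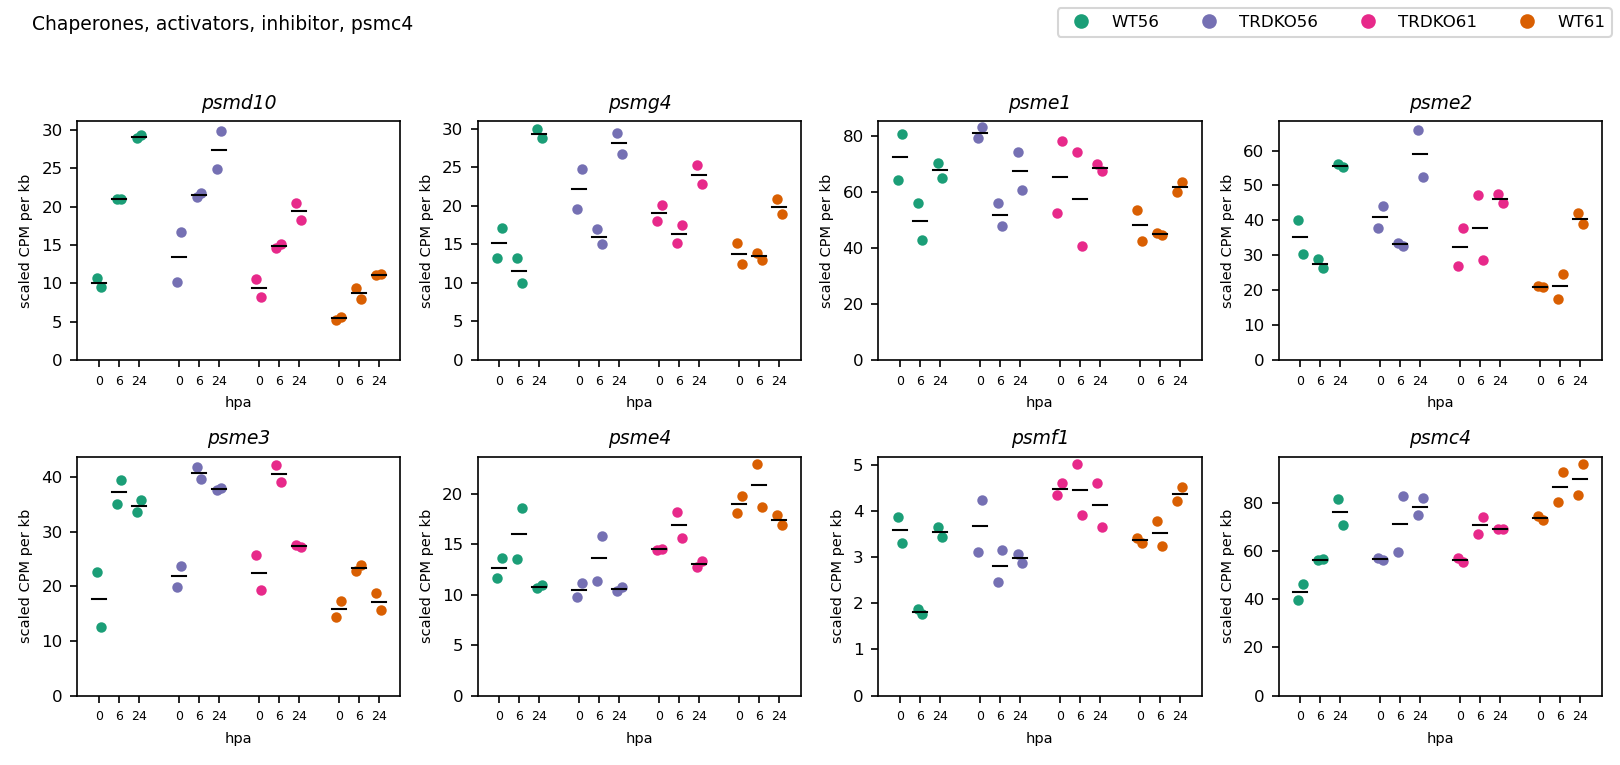
Level in each library (points, scaled CPM per kb, one panel per gene with its own axis) of the chaperones *psmd10* and *psmg4*, the activators *psme1* to *psme4*, the inhibitor *psmf1* and the ATPase *psmc4*, by condition, with a bar for the mean of 2 libraries. *psmd10* steps up with time in all 4 groups and is lowest in WT61, where it runs from 5.169 to 11.26.

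Genes that work with the proteasome were read from a list of partners, of which 31 were tested. At 0 hpa, 8 were higher and 1 lower in WT61 than in WT56, with a median of 0.24, beside 10.7% and 11.6% of all tested genes called. Among them were *paaf1*, which binds the ATPase ring (log2 FC 1.87), *nploc4* and *ufd1*, the adaptors of the segregase VCP (0.73 and 0.60), the ubiquitin ligase *ube3c* (0.57), *ecpas*, which ties the core to the regulatory particle (0.51), and the ubiquitin receptor *adrm1* (0.70). In TRDKO 1 was higher, the ubiquitin gene *ubb* (0.84), and none was lower, with a median of 0.05 and with 7.93% and 8.8% of all genes called. In TRDKO61 at 0 hpa *paaf1* was lower than in WT61 (log2 FC -2.73, FDR 0.000157). The maturation factor of the core, *pomp*, had a log2 FC of 0.18 between stages in WT, and *nfe2l1*, which in mammals drives the genes of the subunits when the proteasome is impaired, had 0.36. The related factor *nfe2l2* had -0.15, and none of these 3 was called.

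The partners were also followed after amputation. From 0 to 6 hpa in WT56, 6 were higher and 1 lower, with a median of 0.12, beside 11.9% and 10% of all tested genes. *zfand2a*, a stress-induced adaptor of the proteasome, was higher by 1.60, 1.26, 1.56 and 1.31 in WT56, TRDKO56, TRDKO61 and WT61 on the log2 scale, and each was called. *akirin2*, which brings the proteasome into the nucleus in human cells, was called in WT56, TRDKO56 and TRDKO61 (0.62, 0.73 and 0.53) and had 0.39 in WT61. At 24 against 0 hpa, the partners called higher and lower were 14 and 4 in WT56, 2 and 0 in WT61, 14 and 3 in TRDKO56, and 4 and 1 in TRDKO61. Of all tested genes, 20.2% and 17.7% were called higher and lower in WT56, 5.11% and 5.14% in WT61, 19.5% and 16.5% in TRDKO56, and 6.25% and 4.12% in TRDKO61, so that at stage 61 the partners' counts were near this background or only a few genes over it. *pomp* was among those higher, by 0.67 in WT56 and 0.43 in WT61.

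The list of muscle atrophy ligases and their regulators, 15 genes, had 4 higher and 1 lower at stage 61 in WT at 0 hpa (median 0.34) and 2 higher and none lower in TRDKO (median 0.27). With 10.7% and 11.6% of all genes called in WT and 7.93% and 8.8% in TRDKO, these counts lie within a few genes of the background. *fbxo32*, the muscle ubiquitin ligase atrogin-1, was higher at stage 61 by 2.32 in WT and 1.88 in TRDKO on the log2 scale. The ligase *trim63* had 0.41 and 0.44, neither of them called. *foxo1*, a transcription factor that induces both ligases in mammals, was higher by 1.57 in WT and 0.71 in TRDKO, and the difference of 0.86 between these was called. After amputation *fbxo32* rose by 1.48 in WT56 and 1.60 in TRDKO56 by 6 hpa, and its log2 FCs of -0.56 and -0.64 at stage 61 were not called. At 24 against 0 hpa the list had medians of -0.50, -0.32, -0.24 and -0.37 in WT56, TRDKO56, TRDKO61 and WT61, where the members of the proteasome had 0.83, 0.61, 0.39 and 0.37.

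Of the list for interferon and MHC class I, 23 genes were tested. Between stages in WT at 0 hpa, 4 were higher and 2 lower (median -0.11), and in TRDKO none was higher and 2 were lower (median 0.10). These counts are within a few genes of the background of 10.7% and 11.6% of all genes in WT and 7.93% and 8.8% in TRDKO. By 6 hpa in WT56, 5 were higher and 6 lower, beside 11.9% and 10% of all genes. *irf1*, a factor induced by interferon gamma, rose by 1.47, 1.64, 2.06 and 1.31 in WT56, TRDKO56, TRDKO61 and WT61. *b2m* fell by 0.83 in WT56 and rose by 0.86 in TRDKO61, the groups in which *psmb7.2* fell and rose. At 24 against 0 hpa the list had 9, 9, 6 and 4 genes higher in WT56, TRDKO56, TRDKO61 and WT61, beside 20.2%, 19.5%, 6.25% and 5.11% of all tested genes, while neither *psmb8* nor *psmb9* was called.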

How the data were processed

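Total RNA from tail tissue at the cut was sequenced in 24 libraries. The labels name a stranded total RNA kit and the methods name poly-A selection. The submitters' notes name cutadapt 3.2, STAR 2.7.7a and featureCounts of Subread 2.0.1. The deposited values are raw counts per gene, made by the authors without normalization, for 26531 genes, and 2 genes broken over lines were rejoined. The strand option is not given in the sources used here. *psmc5*, *psmd1*, *psma3* and *psme1* share 43, 179, 72 and 90 exon bases with a gene on the other strand, and reads there could belong to either.

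Counts were analysed with edgeR 4.0.16 in R 4.3.3 (limma 3.58.1, statmod 1.5.0): filterByExpr, TMM factors, and 1 robust quasi-likelihood fit of the 12 conditions with all 24 libraries. Tests were two-sided, with Benjamini-Hochberg adjustment over the 16743 genes of a comparison, and the fit was tested on simulated data. Alternatives were DESeq2 1.42.0, other size factors, no filter, fits to 8 or 4 libraries, a replicate block, and leaving out each library. The members, lists and tests were chosen with earlier results of these data known. Genes with full values were the catalytic genes, activators and inhibitor, and per particle the largest called changes without overlap between libraries. Markers of other cell types were listed from general knowledge. Library totals were 3956148 to 20731438 counts (median 12576320), and the biological coefficient of variation was 10.9% to 22.3%. A gene of the interferon list is not reported here.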

Additional observations from a re-analysis of the deposited data

Results flagged for a closer look

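The stage change of the 19S ATPase gene *psmc4* at 0 hpa differed between genotypes, with a difference of 0.80 on the log2 scale (WT minus TRDKO, SE 0.206, FDR 0.0486 in edgeR's quasi-likelihood test). The change from 6 to 24 hpa of the 19S base gene *psmd2* differed between stages in TRDKO, with a difference of -0.71 (TRDKO61 minus TRDKO56, SE 0.202, FDR 0.0424 in the same test). Each was the only member called, 2.174% of those tested. Of all tested genes, 1.53% were called larger and 0.997% smaller in the first difference, and 3.86% and 2.85% in the second. The *psmc4* call was lost in 10 of 14 alternatives, and the *psmd2* call was lost in some fits that left out a library, as given above.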

How the results depend on the processing

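Single-gene calls were tested again for stage at 0 hpa, its genotype difference, TRDKO61 against WT61 at 0 hpa and time within a group. Calls of other comparisons were not checked for their sign. None of the 241 calls tested again changed its sign under the alternatives run. Medians over the members that lay near 0 did: for TRDKO61 against WT61 at 0 hpa it went from 0.02 to -0.03 without WT61 replicate 2 and to -0.06 without TRDKO61 replicate 2, and from 6 to 24 hpa in TRDKO61 it went from 0.05 to -0.0057 without 24 hpa replicate 1. Of the 241 calls of single genes tested again, 239 held with DESeq2, 228 with RLE size factors, 213 with upper-quartile factors, 198 without the low-count filter, 180 in fits to 8 libraries and 150 of 240 in fits to 4 libraries. Over the fits that left out 1 library, 587 of 968 held. The spread is estimated from 2 libraries per condition, and where 1 was left out the other was assumed to vary like the rest. The promoter alternative was not run. The cause of the values below was not tested, other than fewer libraries in the smaller fits and a stricter limit.

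Members called with an absolute log2 FC over 1 numbered 1 for stage in WT at 0 hpa. There were 0 for the genotype difference in that change and for TRDKO61 against WT61. Of all tested genes, 10.58%, 1.965% and 10.62% met both limits in these 3 comparisons. From 0 to 6 hpa the counts were 4, 0, 1 and 0 in WT56, TRDKO56, TRDKO61 and WT61, beside 9.53%, 9.96%, 9.96% and 4.51% of all tested genes. From 6 to 24 hpa they were 3, 0, 0 and 0, beside 14.01%, 14.26%, 5.40% and 2.02%. From 0 to 24 hpa they were 13, 3, 1 and 1, beside 17.7%, 15.2%, 5.35% and 6.415%. For stage in TRDKO at 0 hpa, where the main count was 0, upper-quartile factors gave 1 and fits to 8 and 4 libraries gave 2 each. For the genotype difference in the stage change, RLE factors and no filter gave 0 and DESeq2 gave 4. For TRDKO61 against WT61 a fit to 4 libraries gave 4.

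From 0 to 6 hpa, WT56 had 11 calls without the filter, 10 with 8 libraries and 7 with 4. TRDKO56 had 3 with 8 libraries and 5 with 4, TRDKO61 had 6 and 1, and WT61 had 0 with upper-quartile factors, no filter, 8 libraries and 4 libraries, and 3 with DESeq2. With upper-quartile factors the median log2 FC was 0.26 in WT56 and 0.24 in TRDKO61. From 6 to 24 hpa, TRDKO56 had 9 with 8 libraries and 10 with 4. TRDKO61 had 4 with upper-quartile factors and DESeq2 and 0 without the filter, with 8 libraries and with 4. WT61 had 1 without the filter and with 8 libraries, 0 with 4 and 5 with DESeq2. The median in WT56 was 0.52 with upper-quartile factors and 0.52 with 4 libraries. From 0 to 24 hpa, TRDKO61 had 11 without the filter, 11 with 8 libraries and 2 with 4, and WT61 had 11 without the filter. The median in WT56 was 0.78 with RLE factors, 0.75 with upper-quartile factors, 0.80 with 8 libraries, 0.78 with 4 and 0.79 with DESeq2, and in TRDKO56 it was 0.48 with upper-quartile factors. These factors moved the median of all genes from -0.03 to -0.11 in TRDKO56 by 6 hpa.

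Leaving out 1 library gave 8 to 9 calls for stage in WT, with medians of 0.22 to 0.31, 0 to 1 for stage in TRDKO, 0 to 0 for the genotype difference and 4 to 5 for TRDKO61 against WT61. From 0 to 6 hpa the counts were 4 to 11 in WT56 (medians 0.29 to 0.35), 3 to 16 in TRDKO56, 6 to 12 in TRDKO61 and 0 to 1 in WT61. From 6 to 24 hpa they were 18 to 28 in WT56 (medians 0.53 to 0.58), 9 to 13 in TRDKO56, 0 to 1 in TRDKO61 (medians -0.0057 to 0.188) and 0 to 1 in WT61. From 0 to 24 hpa they were 2 to 14 in TRDKO61 and 2 to 4 in WT61, and the median in WT56 was 0.79 to 0.86.

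The labels number the replicates in each condition. Deviations of same-numbered libraries correlated at -0.255 to 0.207 over 66 pairs of conditions (median -0.0169), with 9 over 0.1 and 9 under -0.1. Whether some same-numbered libraries share animals or a preparation was not tested. With the replicate block, 233 of the 241 single-gene calls held, and the count from 6 to 24 hpa in TRDKO61 went from 1 to 0.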
